A study of Homo sapiens with 12 samples.

Results

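The genes described here are the DEAD and DEAH box RNA helicases, named after the amino acids of a conserved motif that helps them bind and split ATP. They were chosen by symbol, as every gene named DDX or DHX with a number, without the interferon-induced sensors DDX58 and DHX58 and the Y-linked DDX3Y, and 54 of the 25268 genes with values matched. These enzymes use ATP to pry apart short RNA duplexes or to strip proteins off RNA. Different members drive splicing, the assembly of ribosomes, the export of mRNA from the nucleus, its translation and its decay. Counted among the helicases by symbol alone are DDX12P, a pseudogene, and DDX26B, called INTS6L in current annotation. RBMX is an RNA-binding protein, found in the nucleus and the cytoplasm, that regulates splicing and the abundance of transcripts.

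RNA came from HEK293 cells, a line derived from human embryonic kidney, that were transiently transfected by Lipofectamine2000 with 2 µg of either pCMV6-HIS-HA-RBMX, in which a viral promoter drives RBMX with a tag, or the mock empty vector. The labels call the empty-vector cells wild type, and they are called control here. Each vector had 3 cultures, all treated with cycloheximide, which holds ribosomes on mRNA, before lysis. Lysates without nuclei were spread on sucrose gradients, polysomal RNA came from the fractions that hold several ribosomes per mRNA, and total RNA was a pool of a fixed share of every fraction. Thus, 4 groups of 3 libraries were available, and total RNA here means cytoplasmic RNA. For RBMX against control within a fraction, the p-values below measure the spread between these cultures. Comparisons across fractions without pairing treated each library as independent, though a culture may have given both fractions. With a term for each culture, their p-values measure the spread of the differences within cultures.

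RBMX itself rose from 133 ± 22.2 FPKM (SD, n = 3) in control to 1755 ± 307 FPKM (SD, n = 3) in RBMX total RNA. FPKM counts fragments per kilobase of a transcript, here already scaled between libraries. On polysomes RBMX rose from 127 ± 34.3 FPKM (SD, n = 3) to 1189 ± 129.5 FPKM (SD, n = 3). Both passed limma's test across all genes (adjusted p = 0.00269 and 0.0415). All 5 genes used to recognise HEK293 cells had a mean FPKM of at least 0.5, against 2 of 14 markers of other cell types. Spearman correlations between replicates lay between 0.975 and 0.997, small RNA genes left out. The third control culture stood apart from the other two in both fractions, and the third RBMX culture had the lowest levels of interferon-induced genes among the RBMX cultures. Values without control replicate 3 or RBMX replicate 3 are given where they move a printed result most. The sequencing depth of the libraries is unknown.

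The mRNA of 50 helicases was well above the limit for testing, a mean FPKM of 0.5 over the 12 libraries. The lowest mean among them was 5.05, for DDX60. The other 4 genes, DDX4, DDX25, DDX43 and DDX53, belong to the germ line and testis, and their highest mean FPKM was 0.282. DDX53 was listed at 0 in every library.

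Among the 50 genes, helicases of splicing and mRNA export took the top of the order by FPKM, which is a level per length. DDX39B, which loads export factors on spliced mRNA, was highest, with a mean FPKM of 284. It was followed by DDX17, a cofactor of splicing and transcription, at 175, by DDX3X, which helps ribosomes scan structured leaders, at 156, and by DDX5, the close relative of DDX17, at 127. DDX39A, the paralog of DDX39B, had a mean FPKM of 91.8 and DDX21, which acts in ribosomal RNA synthesis and processing, 75.3. The ranges of neighbours in this order often overlapped over the 12 libraries. DDX17 spanned 140 to 189 FPKM and DDX3X 113 to 169, whereas DDX39B, at 245 to 334, did not overlap any other of the 50 genes. EIF4A1, an RNA helicase outside the DDX and DHX names, had a mean FPKM of 421 in control total RNA, above DDX39B at 267. The lowest levels among the tested genes belonged to DHX35, a splicing helicase with a mean FPKM of 5.74, and DDX60. The map of levels by library shows all 50 genes.

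**Figure D1:**
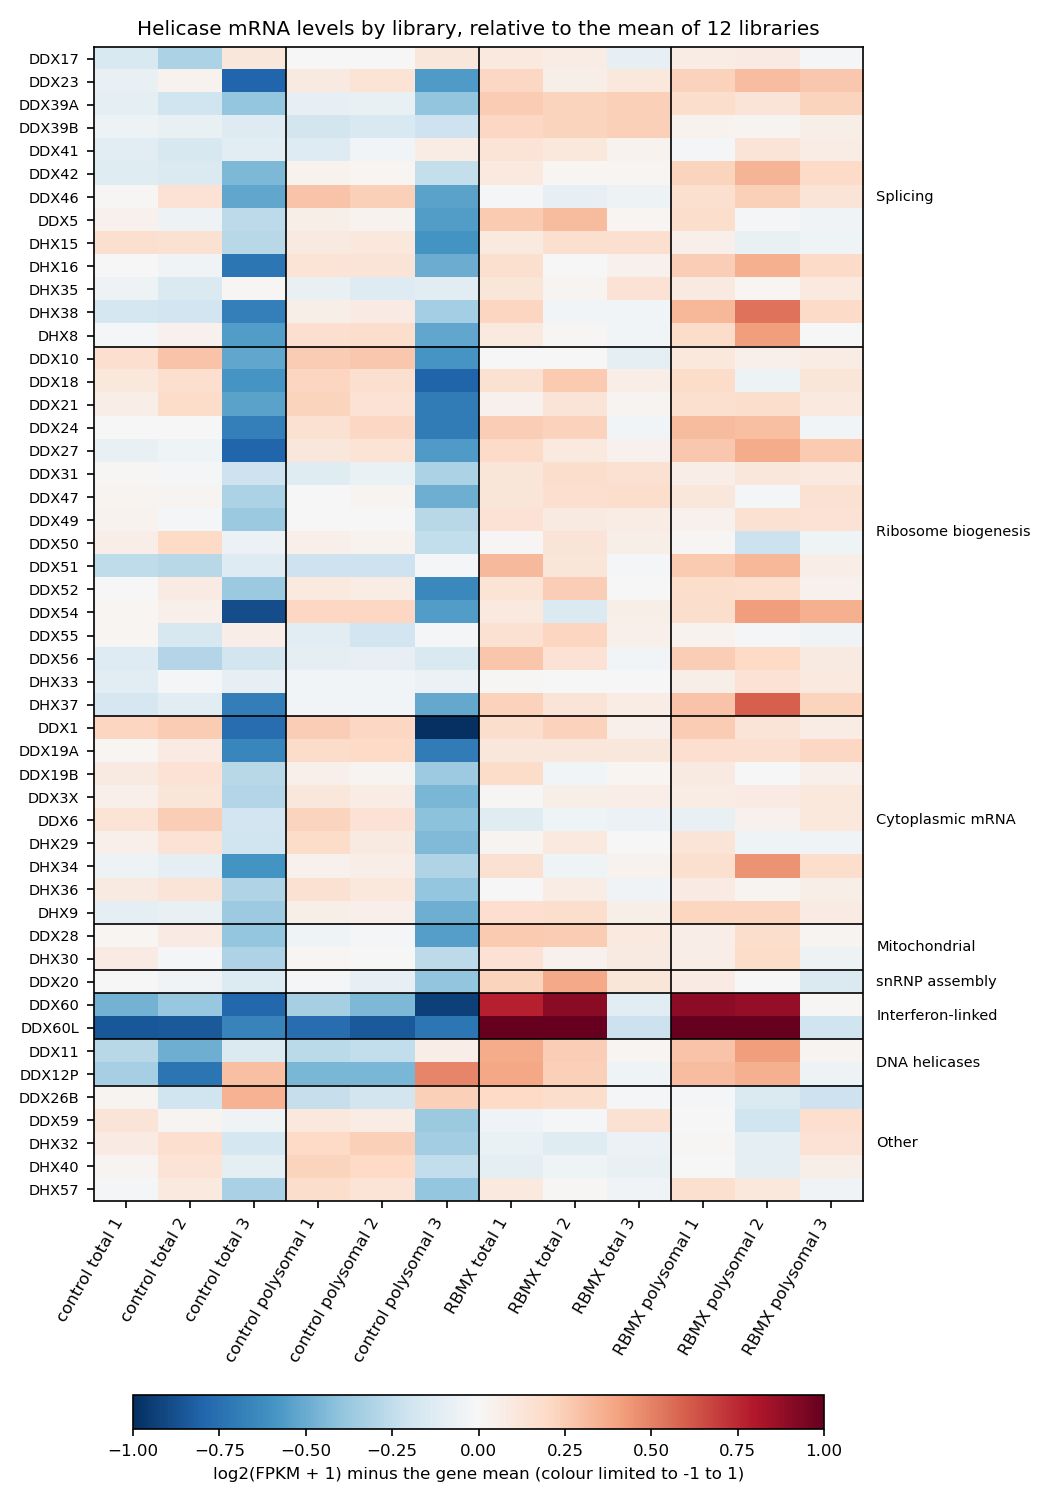
Level of each of the 50 tested helicases (lines, grouped by role) in each of the 12 libraries (columns), as log2(FPKM + 1) minus the mean of the gene over the libraries. Colour is limited to -1 to 1. Most helicases are pale blue to dark blue in control replicate 3 of both fractions, and DDX60 and DDX60L are dark red in RBMX replicates 1 and 2.

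Comparing RBMX with control cells asks whether more RBMX changes the level of helicase mRNAs. Most helicases were higher in RBMX cells, in both fractions, but none passed the test. Of the 50 helicases, 44 had a log2 fold change above 0 in total RNA, as did 49.7% of all 14676 genes tested. For polysomal RNA this held for 46 helicases and 49.5% of all genes. The helicases' median was 0.23 on the log2 scale in each fraction, with a median of 0 over all genes. In limma's test, with Benjamini-Hochberg adjustment over all genes, 0 of 50 were called at an adjusted p up to 0.05 in total RNA, where 0.164% of all genes were called. In polysomal RNA 0 of 50 were called as well, with 0.0477% of all genes called. The lowest adjusted p of any helicase was 0.165 in total RNA, for DDX39A. In bulk RNA of transiently transfected cells, more cells with a transcript and more of it per cell cannot be told apart.

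Below that threshold, the direction was uneven. In total RNA, 13 helicases were higher at an unadjusted p under 0.05, a share of 26.0%, and 0 were lower, against 7.93% and 10.8% of all genes. In polysomal RNA, 12 were higher and 0 lower, against 5.16% and 6.53%. With control replicate 3 left out, 18 were higher in total RNA, with 11.3% of all genes, and 4 were lower, with 14.3% (DDX6, DDX10, DHX32 and DHX40). On polysomes 16 were then higher, with 8.36%, and 2 lower, with 9.32% (DDX10 and DHX40). The 3 RBMX libraries lay above all 3 control libraries for 24 helicases in total RNA, as they did for 11.9% of all genes. They did so for 19 helicases on polysomes, and for 10.0% of all genes. For 0 helicases did they lie below in either fraction, where 15.4% and 12.5% of all genes did. With 3 against 3 libraries, no exact two-sided permutation p can be under 0.1.

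The third control culture had lower levels of most helicases than the other two. In its total RNA, 40 of the 50 helicases were lower than the mean of control libraries 1 and 2, with a median difference of -0.35 on the log2 scale against 0.01 over all genes. In its polysomal RNA 42 were lower, with a median of -0.50. Differences of more than 0.2 downward were seen for 34 helicases in total RNA, where 24.7% of all genes had them, and for 38 in polysomal RNA, where 29.4% of all genes did. DDX1, an RNA helicase of tRNA ligation and RNA transport, lay lowest, with FPKM of 83.0, 85.5 and 41.8 in the 3 control total libraries. DDX12P went furthest the other way, with 6.34, 4.56 and 10.3. Thus, control replicate 3 had less of most helicase mRNAs and more of a few.

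Without control replicate 3, the helicases' median was 0.13 on the log2 scale for total and 0.08 for polysomal RNA. Then 34 of 50 were above 0 in total RNA, with 46.5% of all genes, and 33 in polysomal RNA, with 43.2%. DDX1 went from 0.25 to -0.08 for total RNA, and its polysomal value from 0.36 to -0.07. DDX6, a repressor of translation that works with the decapping machinery, went from -0.14 to -0.27 in total RNA, and DDX10, a ribosome assembly factor, from -0.01 to -0.26. Neither of the latter was called without that library (adjusted p = 0.125 and 0.132, limma).

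**Figure D2:**
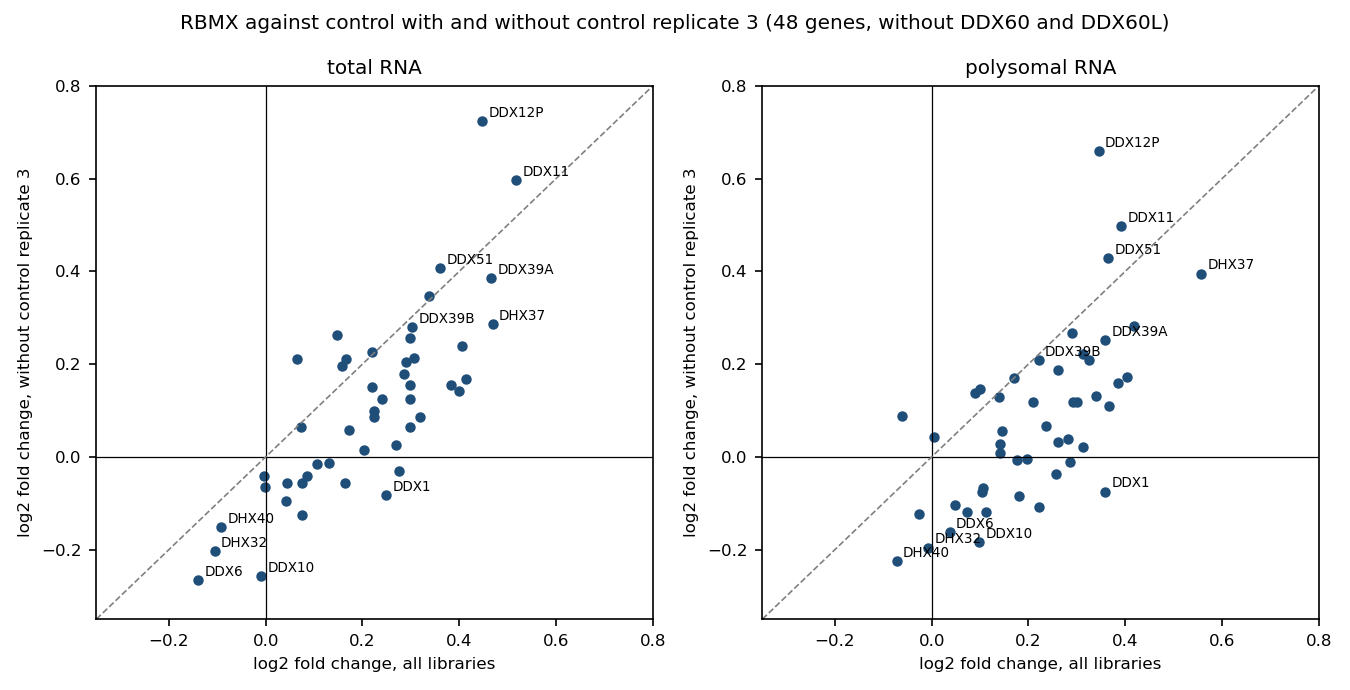
Log2 fold change (RBMX against control, FPKM + 1) of 48 helicases with all libraries (horizontal axis) and without control replicate 3 (vertical axis), in total and polysomal RNA. The dashed line marks equal values. DDX60 and DDX60L, above the range drawn, are left out. Most points lie under the line, DDX12P and DDX11 lie above it, and DDX1 crosses from above 0 to below 0 in both fractions.

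The largest differences belonged to DDX60 and DDX60L, neighbours on chromosome 4 whose products are linked to the antiviral response and whose transcription interferon raises. DDX60L had FPKM of 3.03, 3.05 and 3.56 in control total RNA and 15.5, 16.8 and 5.26 in RBMX total RNA. In polysomal RNA the values were 3.27, 3.06 and 3.38 in control and 16.8, 16.8 and 5.31 in RBMX cells. The groups did not overlap in either fraction, and RBMX replicate 3 lay much closer to the controls than to the other RBMX libraries. The log2 fold change was 1.54 (SE 0.418, adjusted p = 0.183, limma) in total RNA and 1.57 (SE 0.428, adjusted p = 0.400) in polysomal RNA.

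In DDX60, too, RBMX replicates 1 and 2 were highest. Its FPKM was 2.93, 3.18 and 2.16 in control total RNA and 8.32, 9.20 and 4.02 in RBMX total RNA. In polysomal RNA it was 3.33, 3.00 and 1.86 in control and 9.10, 9.001 and 4.49 in RBMX cells. Again the groups did not overlap and RBMX replicate 3 was lowest of its group. The log2 fold change was 1.07 (SE 0.295, adjusted p = 0.186, limma) in total RNA and 1.16 (SE 0.298, adjusted p = 0.400) in polysomal RNA.

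RBMX replicate 3, the lowest of its group for both genes, decided whether they were called. Without it, 1.21% of all genes were called for total and 0.859% for polysomal RNA. The log2 fold change in total RNA was then 2.03 for DDX60L (adjusted p = 0.00299, limma) and 1.39 for DDX60 (adjusted p = 0.0392). In polysomal RNA it was 2.07 for DDX60L (adjusted p = 0.00314) and 1.45 for DDX60, which was not called (adjusted p = 0.102). These transcripts share 78.7% identity over 2620 aligned bases, and how reads common to both were divided is not given in the sources used here.

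A list of 15 interferon response genes, DDX58 and DHX58 among them, varied with the same libraries. This list was chosen with earlier results of these data known. All 15 were higher in RBMX than in control cells in total RNA, with groups that did not overlap, as for 11.9% of all genes. Their median log2 fold change was 2.36, though 0 were called. Their summed FPKM was 1114, 1244 and 706 in the 3 control total libraries and ranged from 2215 to 6738 in RBMX total RNA. It was lowest in replicate 3 of each vector. DDX58, a sensor of viral RNA, had a log2 fold change of 1.84 and DHX58, its regulator, of 2.36 (adjusted p = 0.176 for both, limma). RBMX itself had FPKM of 1731, 2073 and 1460 in the 3 RBMX total libraries, so that replicate 3 was lowest here too. The part of the RBMX level in these values was not tested.

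The promoters of DDX60 and DDX60L are shown because both hold, in pairs, the core of the sequence that interferon-activated factors bind. The motif searched is GAAA, then 2 bases of any kind, then GAAA, on both strands from 250 bases before to 50 after each start in RefSeq (GRCh38.p14). It was found for 3 of the 49 helicases with an entry, and in 3.57% of 35116 promoters of the same length. These shares differ in unit. The 49 helicases had 64 promoters, and a helicase counted if any of its promoters held the motif, whereas the second share is per promoter. Capitals mark the match in the lines below, each read along the strand of the gene, which is the minus strand of chromosome 4.
DDX60, chr4:168318821-168318850, match at -88: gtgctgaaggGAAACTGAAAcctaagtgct
DDX60, chr4:168318786-168318815, match at -53: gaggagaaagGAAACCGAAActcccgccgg
DDX60L, chr4:168480553-168480582, match at -80: gaaaactgcgGAAATCGAAAaggcctcgcg
DDX60L, chr4:168480523-168480552, match at -50: gtggagaaaaGAAACCGAAActaactccct
DHX15, chr4:24584750-24584779, match at -215: aggatagcctGAAATGGAAAgtgaaggcct
Positions count from the RefSeq start of transcription. A match is only a description of these letters. DHX15, a splicing helicase that releases the spliced intron, holds 1 match, and its log2 fold change in total RNA was 0.13 (SE 0.131, adjusted p = 0.617, limma), with overlapping groups, and -0.01 without control replicate 3. DDX12P, DDX18, DDX49, DDX52 and DHX33 had no entry in the table.

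**Figure D3:**
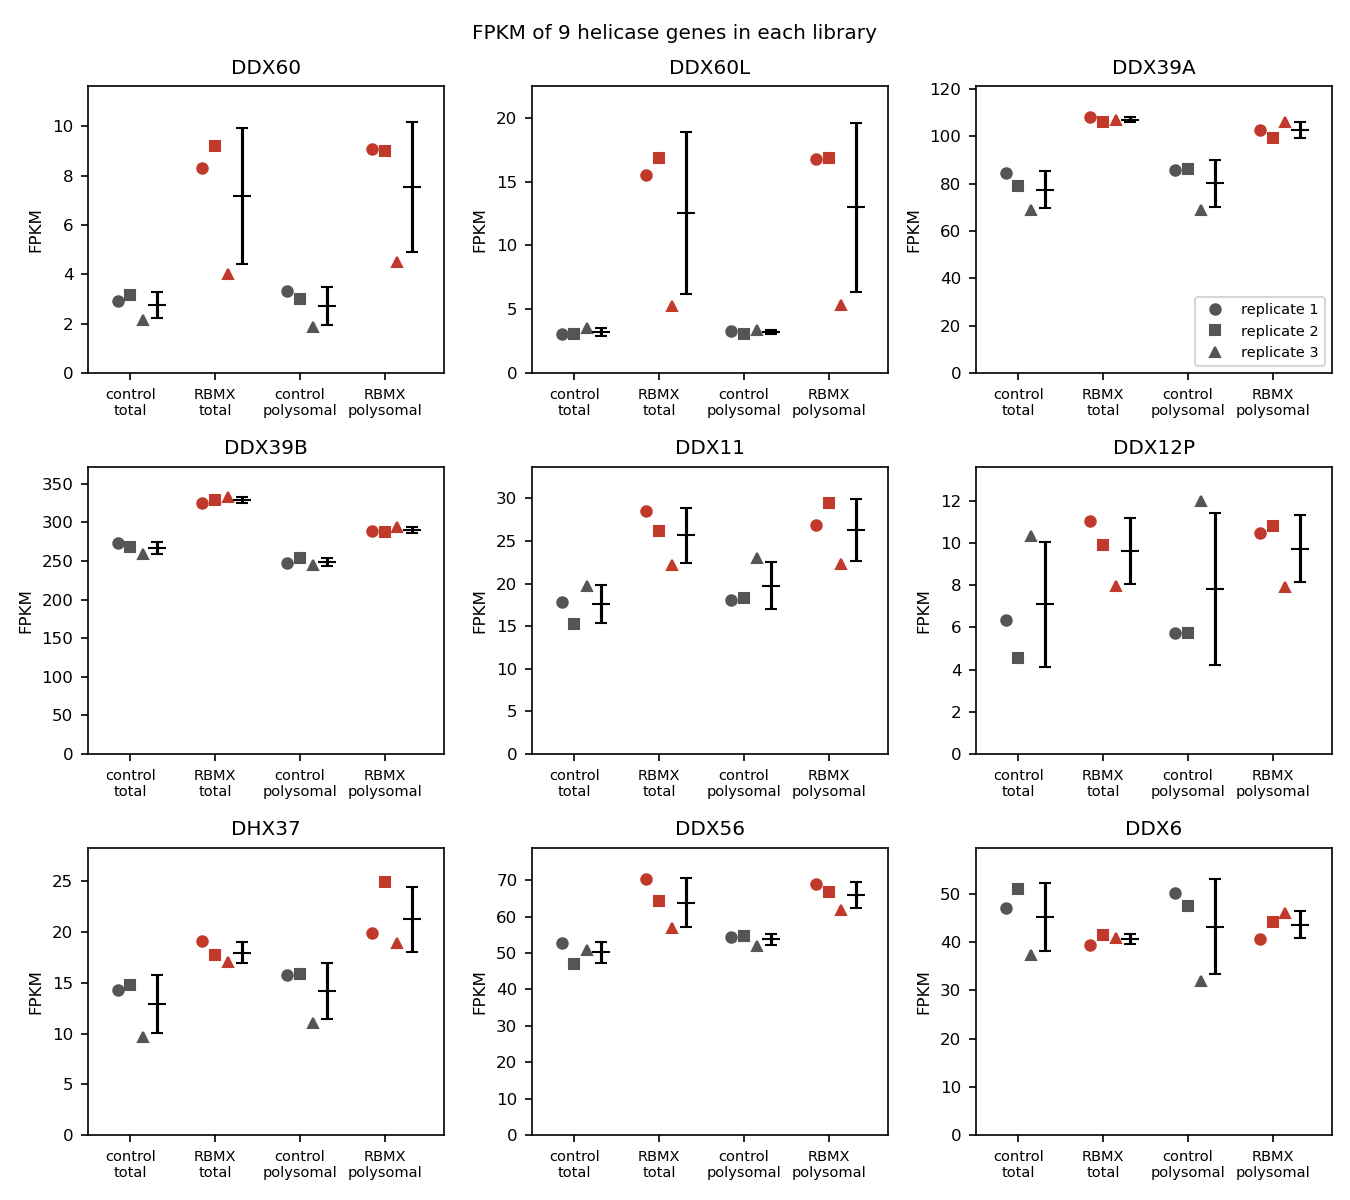
FPKM of 9 helicase genes in each library, by group (circle, square and triangle are replicates 1, 2 and 3, grey is control and red is RBMX, the black bar is the mean ± SD of 3). DDX60 and DDX60L are highest in RBMX replicates 1 and 2, DDX39A and DDX39B are separate between vectors in both fractions, and control replicate 3 of DDX12P lies among or above the RBMX libraries.

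Among the 13 helicases of splicing and of export after splicing, all 13 had a log2 fold change above 0 in total RNA, with a median of 0.29, and none was called. The groups did not overlap for 8 of them, with RBMX higher, as for 11.9% of all genes. Without control replicate 3 the median was 0.20 and 11 of 13 were above 0. In polysomal RNA all 13 were above 0, with a median of 0.22 and 7 separate, against 10.0% of all genes. Without control replicate 3 the median there was 0.14 and 10 of 13 were above 0. DDX39A had the lowest adjusted p of all helicases in total RNA. Its FPKM was 84.5, 78.9 and 69.1 in control total RNA and 108, 106 and 107 in RBMX total RNA. The groups did not overlap, and the RBMX libraries differed by far less than the controls did. The log2 fold change was 0.47 (SE 0.0840, adjusted p = 0.165, limma) in total RNA and 0.36 (SE 0.110, adjusted p = 0.400) in polysomal RNA.

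DDX39B, the highest by FPKM of the DDX and DHX genes, had FPKM of 273, 269 and 259 in control total RNA and 325, 329 and 334 in RBMX total RNA. In polysomal RNA it had 248, 254 and 245 in control and 289, 287 and 295 in RBMX cells. The vectors were separate in each fraction. The log2 fold change was 0.30 (SE 0.0597, adjusted p = 0.170, limma) in total RNA and 0.22 (SE 0.0852, adjusted p = 0.420) in polysomal RNA, and for both paralogs leaving out control replicate 3 kept the value above 0 (0.39 for DDX39A and 0.28 for DDX39B in total RNA). DDX39A and DDX39B transcripts share 81.5% identity over 1195 bases.

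The other splicing helicases moved less evenly. DHX38, which remodels the spliceosome before the second step of splicing, had a log2 fold change of 0.40 (SE 0.163, adjusted p = 0.267, limma) in total RNA, and DDX23, which opens the way for spliceosome activation, 0.40 (SE 0.227, adjusted p = 0.394). Without control replicate 3 these were 0.24 and 0.14. DDX41, a spliceosome component, had 0.22 with and 0.23 without that library. DDX5 had FPKM of 129, 121 and 104 in control and 151, 157 and 127 in RBMX total RNA, which overlapped. DDX17 had 157, 140 and 189 in control and 186, 184 and 164 in RBMX total RNA, so that control replicate 3 was its highest total library.

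Of the 16 helicases of ribosome biogenesis, 14 had a log2 fold change above 0 for total and 15 for polysomal RNA. The medians were 0.23 and 0.26. The groups did not overlap for 8 and 7 genes, none of which was called, against 11.9% and 10.0% of all genes higher that way. Without control replicate 3 the medians were 0.11 in each fraction and 12 of 16 were above 0. DHX37, which frees a small nucleolar RNA from the early small subunit, had FPKM of 15.8, 15.9 and 11.01 in control polysomal RNA and 19.9, 24.96 and 18.98 in RBMX polysomal RNA. The groups were separate and both control replicate 3 and RBMX replicate 2 stood away from their groups. Its log2 fold change was 0.56 (SE 0.178, adjusted p = 0.403, limma) in polysomal RNA, the third largest with all libraries, and 0.47 (SE 0.167, adjusted p = 0.234) in total RNA. Leaving out control replicate 3 gave 0.40 in polysomal RNA, below DDX12P, DDX11 and DDX51 at 0.66, 0.50 and 0.43, and 0.29 in total RNA.

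DDX56 and DDX51, both of the large subunit, changed little when control replicate 3 was left out. DDX56 had FPKM of 52.8, 47.0 and 50.8 in control and 70.2, 64.3 and 56.9 in RBMX total RNA, a log2 fold change of 0.34 (SE 0.0940, adjusted p = 0.187, limma), and 0.35 without that library. DDX51 had a log2 fold change of 0.36 (SE 0.103, adjusted p = 0.189, limma) and 0.41 without it. By contrast, DDX27, DDX24 and DDX18, with 0.41, 0.38 and 0.27 in total RNA, had 0.17, 0.16 and 0.03 without it. DDX21 had FPKM of 77.4, 84.0 and 50.7 in control and 76.1, 80.9 and 75.6 in RBMX total RNA, so that control replicate 3 alone lay away from the rest.

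The 9 helicases of cytoplasmic mRNA showed the smallest shift of the 3 larger groups in total RNA. Their median was 0.09 on the log2 scale there and 0.18 on polysomes. The groups did not overlap for 3 and 2 genes, with RBMX higher, against 11.9% and 10.0% of all genes. The medians without control replicate 3 were -0.06 and -0.01, and 3 of 9 were above 0 in each fraction. DHX9, a helicase of long duplexes with roles from transcription to translation, had 0.31 (SE 0.0951, adjusted p = 0.201, limma) in total RNA and 0.21 without control replicate 3. DDX3X had FPKM of 161, 169 and 127 in control and 156, 162 and 162 in RBMX total RNA, a log2 fold change of 0.09 with a 95% confidence interval that spans 0, and -0.04 without control replicate 3. DDX6 had 47.1, 51.0 and 37.4 in control and 39.4, 41.4 and 40.9 in RBMX total RNA. Its groups overlapped through control replicate 3 alone.

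DHX36, which unwinds G-quadruplexes, and DHX29, which assists initiation on structured leaders, had log2 fold changes of 0.04 and 0.04 in total RNA, and -0.10 and -0.06 without control replicate 3. DDX19A and DDX19B, which release mRNA from export factors at the nuclear pore, had 0.30 and 0.08, and 0.06 and -0.06 without control replicate 3. They share 95.2% identity over 1621 bases, so reads may have been divided between them. Mitochondrial DDX28 and DHX30 had 0.30 and 0.17, and 0.15 and 0.06 without that library. DDX20, part of the complex that builds spliceosomal ribonucleoproteins, had FPKM of 14.1, 13.7 and 12.6 in control and 16.5, 18.5 and 15.4 in RBMX total RNA. Its groups were separate in total RNA, with a log2 fold change of 0.30 (SE 0.0856, adjusted p = 0.189, limma), and overlapped in polysomal RNA, with 0.14 (SE 0.127, adjusted p = 0.636). Both values were lower when control replicate 3 was left out, 0.26 and 0.03.

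DDX11, a DNA helicase of chromosome cohesion, had the third largest difference in total RNA with all libraries. Its FPKM was 17.9, 15.3 and 19.7 in control and 28.6, 26.2 and 22.2 in RBMX total RNA. The log2 fold change was 0.52 (SE 0.129, adjusted p = 0.176, limma), and in polysomal RNA 0.39 (SE 0.143, adjusted p = 0.417), where control replicate 3, at 23.0, lay above RBMX replicate 3, at 22.3. DDX12P is a pseudogene copied from DDX11, with 98.2% identity over 1195 bases, so the values of both genes are uncertain. DDX12P had 0.45 in total RNA. Leaving out control replicate 3 gave 0.72 for DDX12P there, above DDX11 at 0.60. The 5 remaining genes, DDX26B, DDX59, DHX32, DHX40 and DHX57, had a median of -0.0038 on the log2 scale for total RNA, and -0.04 without control replicate 3, with 0 separate. DDX26B is called INTS6L in current annotation, a relative of an Integrator subunit.

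**Figure D4:**
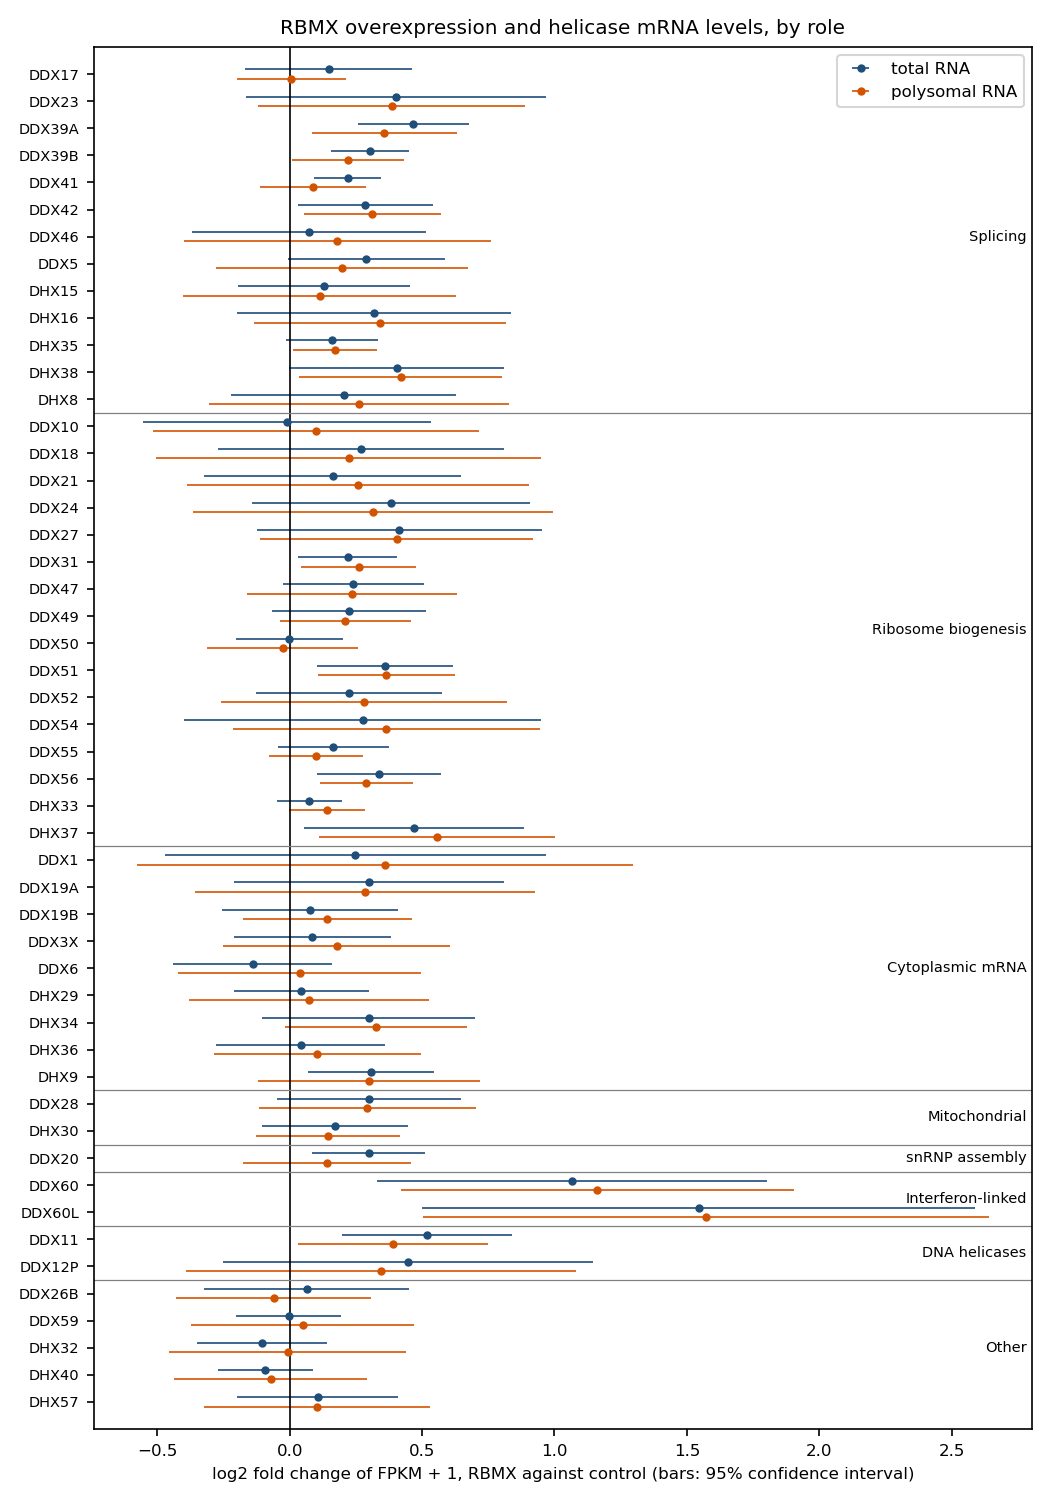
Log2 fold change of RBMX against control (FPKM + 1) with its 95% confidence interval for the 50 helicases, by role, in total RNA (blue) and polysomal RNA (orange). Most values lie between 0 and 0.5, DDX60 and DDX60L lie above 1, and many intervals include 0.

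Setting the effect on polysomes against that in total RNA asks whether RBMX changed how much of a helicase mRNA sat on polysomes. No helicase was called (0 of 50, with 0.0204% of all genes), and 0 of 50 had an unadjusted p under 0.05 in limma's test, where 0.211% of all genes were higher and 0.388% lower. A fit with a term for each culture also gave 0 calls among helicases (0.0341% of all genes) and 0 at an unadjusted p under 0.05, where 0.620% of all genes were higher and 1.53% lower. The differences ranged from -0.16, for DDX20, to 0.18, for DDX6. The cultures of the vectors were separate for DDX39A and DDX39B alone, both lower in RBMX cells, as were 4.12% of all genes. No helicase was higher that way, as 2.86% of all genes were. The differences were -0.11 (95% confidence interval -0.42 to 0.21) for DDX39A and -0.08 (-0.29 to 0.12) for DDX39B, and that of DDX39B turned to 0.15 under quantile normalization.

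Comparing polysomal with total RNA asks which helicase mRNAs are on polysomes in a larger or smaller share than most mRNAs. Without pairing, 0 of 50 helicases were called in control cells (0.0818% of all genes), 0 in RBMX cells (1.34%) and 0 over both vectors (6.61%). At an unadjusted p under 0.05 there were 0 in control cells, where 3.20% of all genes were higher and 4.84% lower. In RBMX cells 7 were higher and 5 lower, with 10.0% and 13.0% of all genes, and over both vectors 2 were higher and 2 lower, with 9.40% and 14.7%. The protocol pools total RNA from the gradient fractions, but the labels also mention separate dishes for total and polysomal RNA, so that pairing same-numbered libraries by culture is an assumption. A fit with a term for each of the 6 cultures was made on it. It called 6 helicases, 12.0%, with 17.6% of all genes. The count for helicases was thus no higher than that for genes at large. With that term and without control culture 3, 0 of 50 were called, with 7.03% of all genes.

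Higher in polysomal RNA in the fit with cultures were 5 genes. DHX38 differed by 0.24, 0.27 and 0.35 on the log2 scale in the 3 control cultures and by 0.11, 0.57 and 0.21 in the 3 RBMX cultures, with a mean of 0.29 (SE 0.0633, adjusted p = 0.0360, limma). All 6 cultures were above 0, and RBMX culture 2 was far above the rest. DDX27 had a mean of 0.20 (SE 0.0357, adjusted p = 0.0272), between 0.08 and 0.28. DDX42, a splicing factor that acts on the branch point complex, had 0.19 (SE 0.0377, adjusted p = 0.0303), between 0.12 and 0.33.

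DHX16, which starts the first step of splicing, and DDX54, a ribosome assembly factor, had means of 0.19 (SE 0.0438, adjusted p = 0.0423, limma) and 0.27 (SE 0.0660, adjusted p = 0.0455). DDX26B was the gene called lower, with a mean of -0.18 (SE 0.0438, adjusted p = 0.0451), and it was above 0 in 1 culture. Without pairing the adjusted p of these 6 genes lay between 0.147 and 0.510.

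Of the 50 helicases, 9 were higher in polysomal RNA in 6 of 6 cultures, as were 16.0% of all genes, and 8 were lower in all 6, as were 16.5%. Both shares were near those of all genes. Among the 9 were 5 splicing helicases, DDX23, DDX42, DHX8, DHX16 and DHX38, and 3 of ribosome biogenesis, DDX27, DDX54 and DHX37, besides DHX34, which takes part in mRNA surveillance. The 8 lower genes held both roles too. They were DDX31, DDX47, DDX50 and DDX55 of ribosome biogenesis, DDX39B and DHX15 of the splicing group, and DDX20 and DDX28. Within RBMX cells the fractions did not overlap for 11 helicases higher on polysomes and 7 lower, against 14.6% and 16.2% of all genes. The largest changes among them were those of DDX54 (0.08, 0.56 and 0.30 by culture), DDX46 (0.17, 0.32 and 0.18) and DHX34 (0.006, 0.49 and 0.14) upward. Downward they were those of DDX20 (-0.14, -0.38 and -0.27), DDX39B and DHX15 (-0.04, -0.24 and -0.20).

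DDX39B was the 1 helicase whose polysomal libraries all lay below the total libraries within control cells, as did 7.31% of all genes. In RBMX cells it was among 7 such helicases, where 16.2% of all genes did so, and it was the 1 helicase for which this held in each vector, with 4.68% of all genes. The differences by culture were -0.14, -0.08 and -0.08 in control and -0.17, -0.20 and -0.18 in RBMX cells. The mean was -0.14 (SE 0.0463, adjusted p = 0.0993, limma, and 0.0604 with the cultures), and it turned to 0.06 under quantile normalization. DDX20 had -0.19 (adjusted p = 0.175, and 0.0503 with the cultures). DDX3X, in contrast, had -0.01 (95% confidence interval -0.25 to 0.24).

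**Figure D5:**
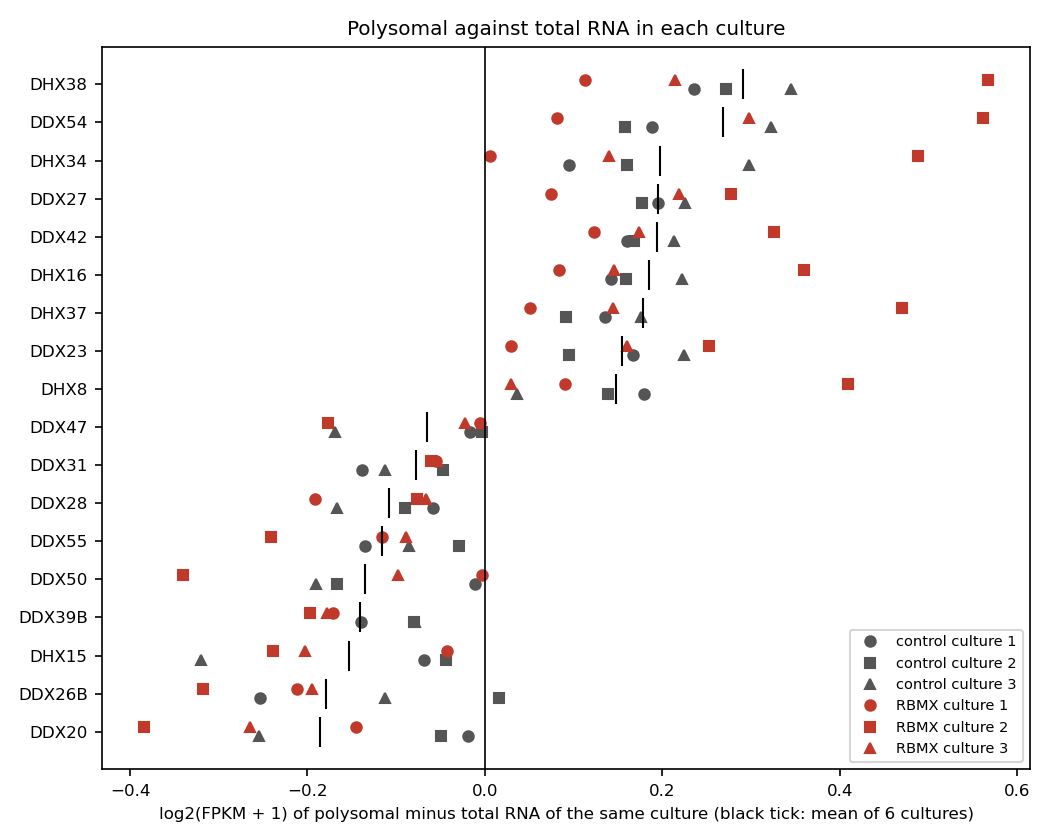
Difference between polysomal and total RNA of the same culture, on the log2(FPKM + 1) scale, for the 17 helicases on the same side of 0 in all 6 cultures and for DDX26B (grey is control and red is RBMX, the black tick is the mean of 6 cultures). DHX38 and DDX54 have the highest means and DDX20 the lowest, and RBMX culture 2 is highest for each of the 9 genes above 0.

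Composition moved with these values. Across the 50 helicases, the Spearman correlation of the RBMX effect in total RNA with the GC content of the transcript was 0.46, and across all genes it was 0.40. For polysomal against total RNA it was 0.38 across the helicases and 0.30 across all genes. Genes share libraries and are not independent replicates. After correcting each library for GC content and length, the helicases' median RBMX effect was 0.21 for total and 0.25 for polysomal RNA, and 0 helicases were called in either.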

How the data were processed

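The authors deposited FPKM values per gene symbol for 12 libraries. The submitters' processing notes name CASAVA 1.8, TopHat2 2.0.13, Cufflinks 2.2.1, Cuffnorm and build hg19, with no role given, and the paper's methods describe another alignment, so the build behind the values is uncertain. No value of depth was recoverable, since at most 23.5% of low values shared a common step.

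The helicases and gene lists were chosen with earlier results of these data known. After a log2(FPKM + 1) transformation, the 14676 genes whose FPKM averaged 0.5 or more were tested with limma 3.58.1 in R 4.3.3 (lmFit and eBayes with trend), with Benjamini-Hochberg adjustment over all genes and a threshold of 0.05. RBMX was compared with control within each fraction, polysomal with total RNA within and over vectors, and both effects with each other over the 12 libraries. The fits were run on simulated data with noise drawn gene by gene and changes larger than those of most helicases. That run held no shift shared by the genes of a library, so it does not bear on the small differences here. Pairing of total and polysomal libraries was assumed from the protocol, in which total RNA is pooled from the fractions of the gradient, though the labels also mention separate dishes. Deviations of same-numbered libraries correlated at 0.428, 0.613 and 0.748 in control and 0.173, 0.0351 and 0.641 in RBMX cultures, over 14170 genes without small RNA genes. Named are helicases called with all libraries, with or without the term for cultures. Named too are up to 3 per direction and comparison with the largest change among those whose groups did not overlap. A fixed list added DDX3X, DDX5, DDX17, DDX6, DDX21, DDX39A, DDX39B, DHX9, DHX15, DHX36, DHX29, DDX60 and DDX60L. Helicases called in other alternatives alone are not all named. Others were chosen after their values were seen. Transcript lengths, GC content and identities (BLAST 2.17.0) came from GENCODE on GRCh38, and promoters from RefSeq on GRCh38.p14. Plots used matplotlib 3.10.9. Alternatives were another pseudocount (0.1), other filters, scalings and fits, and leaving out each library.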

Additional observations from a re-analysis of the deposited data

How the results depend on the processing

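For RBMX against control, the count of helicases called was 0 under each scaling, filter, pseudocount and fit tried. Some of these could change little. The factors of median-ratio rescaling lay between 0.983 and 1.022, and the 50 helicases, with a lowest mean FPKM of 5.05, passed each filter. Leaving out single libraries gave 0 to 2 in total RNA (2 without RBMX replicate 3, DDX60 and DDX60L) and 0 to 1 in polysomal RNA (1 without RBMX replicate 3, DDX60L). The difference between fractions and the comparisons of polysomal with total RNA within each vector gave 0 calls throughout. For polysomal against total RNA over both vectors, the count rose from 0 to 1 with eBayes without a trend (DDX39B), to 6 with the replicate block that pairs the libraries of a culture, to 11 with that block after GC content and length were corrected for (27.5% of all genes), and to 7 without control culture 3 (16.4% of all genes), and was 0 to 1 without single libraries (1 without control polysomal replicate 3, DDX42). The GC and length correction and the removal of a culture were chosen after seeing the data. Under quantile normalization DDX39B turned to 0.15 in the difference, 0.13 in RBMX cells and 0.056 over both vectors. The causes were not tested. Deviations of same-numbered control and RBMX libraries correlated at 0.351, -0.0699 and 0.0656 in total and -0.0704, 0.0608 and 0.0588 in polysomal RNA. A block on the numbers left the calls at 0. The summed FPKM of the interferon response genes was lowest in replicate 3 of each vector and fraction. FPKM carries no depth, and 3 cultures per vector limit what small differences can show.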

Other observations

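Of 17 RNA helicases outside the DDX and DHX names that were tested, 13 had a log2 fold change above 0 for RBMX against control in total RNA and 14 on polysomes, where 49.7% and 49.5% of all genes did. The medians were 0.16 and 0.22, and none was called. Without control replicate 3 the medians were 0.13 and 0.09. ZNFX1, an antiviral helicase that interferon induces, had FPKM of 6.10, 6.34 and 6.51 in control and 12.5, 12.1 and 8.58 in RBMX total RNA. As for DDX60, RBMX replicate 3 was lowest of its group, and the log2 fold change was 0.70 (SE 0.144, adjusted p = 0.170, limma).

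EIF4A2, a subunit of the cap-binding complex of translation initiation, was lower in polysomal than in total RNA over both vectors. Its FPKM was 105, 95.6 and 112 in control total and 88.9, 84.0 and 85.1 in control polysomal RNA, and 118, 125 and 107 in RBMX total and 97.6, 79.8 and 86.0 in RBMX polysomal RNA. The fractions did not overlap in either vector, and it fell by 0.34 on the log2 scale (SE 0.0670, adjusted p = 0.0233, limma, and 0.0268 with the cultures). SUPV3L1, a mitochondrial helicase, fell by 0.20 (SE 0.0479, adjusted p = 0.0434, and 0.0363 with the cultures). These were the 2 of 17 called without pairing, where 6.61% of all genes were called. With the cultures 4 of 17 were called, with 17.6% of all genes, and SNRNP200 and ZNFX1, both higher, were added. EIF4A1, the paralog of EIF4A2, had 0.03 (SE 0.169, adjusted p = 0.952).

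Among 32 partners of helicases, 25 had a log2 fold change above 0 for RBMX against control in total RNA, as did 49.7% of all genes. The median was 0.12, and 0.06 without control replicate 3, and none was called. For polysomal against total RNA 0 were called without pairing and 5 with the cultures, where 6.61% and 17.6% of all genes were called. Of these 5, GPATCH4, EIF4G1, EIF4H and THOC2 were higher and EIF4B was lower.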
